A study of Rattus norvegicus with 96 samples.

Results

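The 3 genes described here are Chat (ENSRNOG00000025012), Slc18a3 (ENSRNOG00000062141) and Slc5a7 (ENSRNOG00000010597), which mark neurons that release acetylcholine. They were chosen by name as the rows of a count table of 17637 rat genes, and all 3 passed the filter on low counts together with the rest of the 16879 genes tested. RNA-seq had been made from the ventral tegmental area (VTA) and from the core and shell of the nucleus accumbens (NAc) of 32 rats, the F1 offspring of crosses between the inbred strains F344 and BN in both directions. In each sex, rats had received nicotine (NIC) at 0.4 mg/kg or saline (SAL) on 4 days and tissue was taken on day 17, without a further nicotine challenge, so the comparison asks what remains of repeated exposure. The 94 libraries analysed fall into 12 groups of 7 or 8 rats (31 VTA, 31 NAc core and 32 NAc shell libraries), and the male rats all carry box label 1 and the female rats box label 3, so that sex and box cannot be told apart.

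Chat encodes choline acetyltransferase, which makes acetylcholine from choline and acetyl-CoA. Slc18a3 encodes the vesicular acetylcholine transporter, which loads the transmitter into synaptic vesicles, and Slc5a7 encodes the high-affinity choline transporter, which returns choline to the nerve terminal after acetylcholine has been broken down. In the striatum, the NAc included, most acetylcholine comes from a sparse class of large aspiny interneurons. The VTA receives cholinergic axons from the mesopontine tegmental nuclei, whose cell bodies, and with them most of their mRNA, lie outside it, and the cholinergic motor neurons of the oculomotor nucleus lie nearby. In whole tissue, fewer cells of a type and less RNA per cell cannot be told apart.

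The sequences before the starts of the 3 genes are shown because Chat and Slc18a3 share a locus and the 3 genes move together across libraries. In the RefSeq annotation of GRCr8, a later build than the Rnor 6 reference used for counting, Slc18a3 lies wholly within the span of Chat on the same strand, and the annotated starts are 602 bases apart. Each window runs from 250 bases before the gene start to 50 bases after it, on the minus strand of the build, and is written in the direction of transcription. The windows are chr16:7723367-7723666 for Chat, chr16:7722765-7723064 for Slc18a3 and chr9:7953460-7953759 for Slc5a7. Capitals mark 3 letter strings searched on both strands, which do not overlap each other here: TAAT, the core letters bound by LIM homeodomain factors such as Isl1, CAGCACC, the left part of the RE1 element bound by the repressor REST, and TGACGT, part of the cAMP response element.
Chat: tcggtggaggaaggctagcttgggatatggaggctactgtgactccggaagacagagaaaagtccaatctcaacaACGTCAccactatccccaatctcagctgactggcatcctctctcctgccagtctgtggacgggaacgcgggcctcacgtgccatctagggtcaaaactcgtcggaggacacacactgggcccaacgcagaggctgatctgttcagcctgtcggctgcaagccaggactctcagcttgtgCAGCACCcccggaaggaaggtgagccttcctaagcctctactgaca
Slc18a3: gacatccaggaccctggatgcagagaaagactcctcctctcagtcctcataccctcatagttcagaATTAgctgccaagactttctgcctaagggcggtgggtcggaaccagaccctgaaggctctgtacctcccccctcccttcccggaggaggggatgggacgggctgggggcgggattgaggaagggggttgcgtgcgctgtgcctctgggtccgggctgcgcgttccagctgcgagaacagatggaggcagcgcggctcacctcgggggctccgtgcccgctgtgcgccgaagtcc
Slc5a7: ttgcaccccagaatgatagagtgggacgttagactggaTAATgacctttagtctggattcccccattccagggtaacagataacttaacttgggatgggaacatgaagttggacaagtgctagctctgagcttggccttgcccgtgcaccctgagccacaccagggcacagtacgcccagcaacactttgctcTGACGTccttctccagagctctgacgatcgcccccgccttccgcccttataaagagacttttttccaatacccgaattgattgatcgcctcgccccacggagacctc

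TGACGT or its reverse complement stood in the Chat and Slc5a7 windows and in 7.94% of all 33469 promoter windows of that length. TAAT stood in the Slc18a3 and Slc5a7 windows and in 60.6% of all windows, and CAGCACC in the Chat window and in 6.78% of all. The 3 strings were chosen with the sequences in view and their presence is a description, not a sign of binding.

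Library totals ran from 15868529 to 27736905 counts. Tissue labels were checked with genes of known cells: Th, which makes dopamine's precursor, had a median level of 711 CPM, counts scaled to a common library size with edgeR's TMM factors, in VTA libraries against 1.63 in the NAc core and 2.17 in the shell, and Drd1, the dopamine receptor of one striatal projection class, 1.27 CPM in the VTA against 92.3 and 82.6. The lowest sums of such tissue markers, 0.0580 to 0.265 times the region's median, were those of 5 libraries (female VTA NIC 2, male NAc core SAL 1, SAL 3 and NIC 10, and male NAc shell SAL 1), and values without them are given beside the comparisons between regions, sexes and treatments. The library labelled female NAc core NIC 1, which is outside the 94, differed from the VTA library of the same rat by a chi-square of 10.2 per degree of freedom, and from other female NAc core NIC libraries by 161 to 230. Its levels of Chat (4.81 CPM), Slc18a3 (9.27 CPM) and Slc5a7 (21.7 CPM) stood beside 5.02, 9.69 and 21.6 CPM in that VTA library, so it goes against its label and was left out.

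All 3 genes were highest in the NAc shell, lower in the core and lowest in the VTA. Levels in CPM are not compared between genes, since gene lengths were not taken into account. Chat, the synthetic enzyme, ranged from 0.147 to 5.02 CPM in the VTA (median 0.491, n = 31), from 0.315 to 11.0 CPM in the core (median 4.42, n = 31) and from 0.498 to 24.9 CPM in the shell (median 7.20, n = 32). In the VTA this rests on 3 to 117 counts per library. Slc18a3 had medians of 0.736, 8.53 and 15.6 CPM in the VTA, core and shell, with ranges of 0.119 to 9.69, 0.830 to 23.9 and 0.996 to 42.5 CPM. Slc5a7 had medians of 3.24, 7.82 and 14.1 CPM, with ranges of 1.23 to 21.6, 0.571 to 22.4 and 0.941 to 36.5 CPM. The ranges overlapped between regions for every gene, and the lowest NAc value of each gene came from a male SAL library with few tissue markers.

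**Figure D1:**
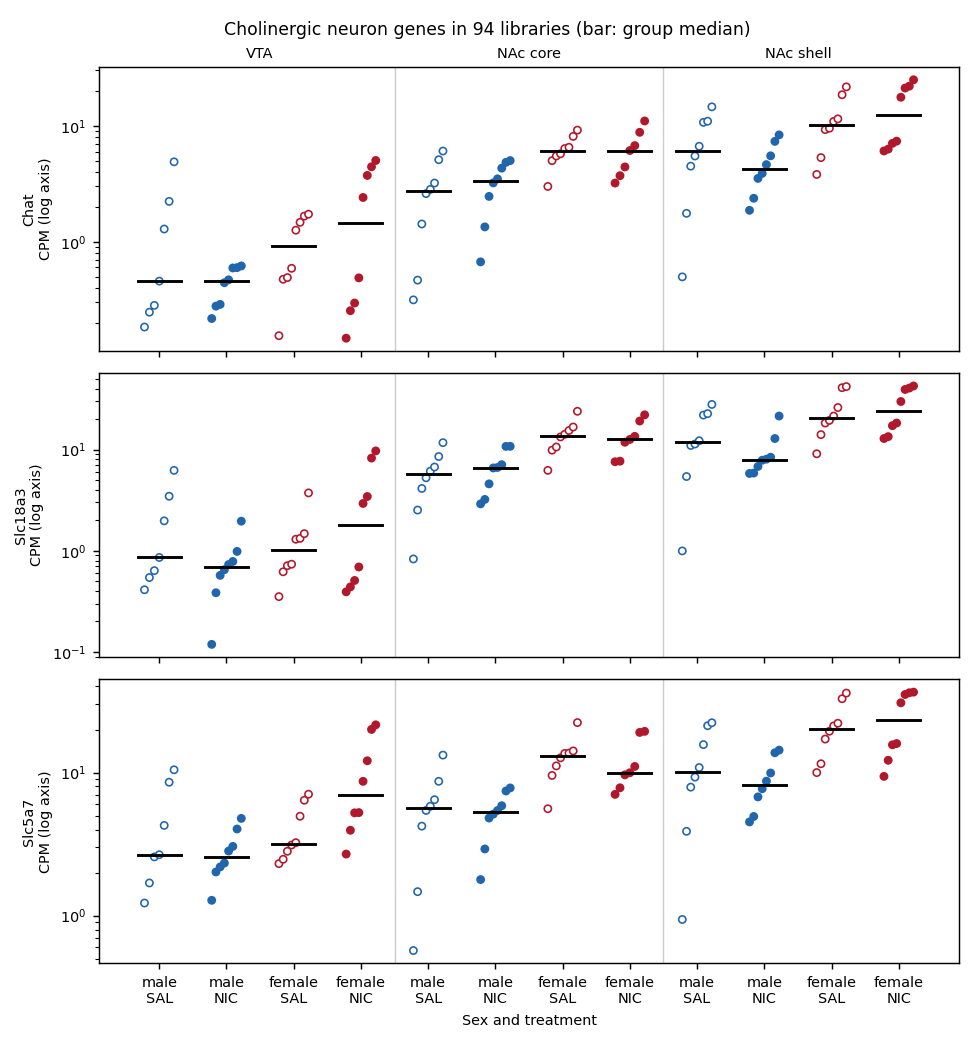
Each point is the CPM of 1 library on a log axis, by region, sex and treatment (open points SAL, filled points NIC, blue male, red female), and bars are group medians. Within each sex and treatment the VTA median lies below both NAc medians of the same gene, and the highest VTA libraries (female NIC, and male SAL for Chat and Slc18a3) reach the range of the core.

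By edgeR's quasi-likelihood test over all groups, Chat was lower in the VTA than in the core by a log2 fold change of -2.01 (SE 0.278, adjusted p = 4.06e-10), and lower in the VTA than in the shell by -2.99 (SE 0.277, adjusted p = 4.52e-17). Slc18a3 differed by -2.52 (SE 0.262) from the core and -3.43 (SE 0.263) from the shell, and Slc5a7 by -0.79 (SE 0.212) and -1.67 (SE 0.210), with adjusted p of 0.000506 or less. Of all genes tested, 81.6% passed for VTA against core (40.3% lower in the VTA) and 80.8% for VTA against shell (40.4% lower in the VTA), so that most genes passed there. The core lay below the shell by -0.98 (SE 0.247) for Chat, -0.91 (SE 0.228) for Slc18a3 and -0.88 (SE 0.204) for Slc5a7, with adjusted p from 0.000356 to 0.00102, where 32.3% of genes passed and 16.5% were lower in the core. Without the 5 libraries of few tissue markers the core lay below the shell by -0.90, -0.85 and -0.80 (Chat, Slc18a3 and Slc5a7), the VTA lay below the core by -2.19, -2.63 and -0.91 and below the shell by -3.08, -3.48 and -1.71, and all 9 kept their calls. All-gene median differences lay between -0.01 and 0.01 in the 3 region comparisons. Within rats the order was much the same: Chat and Slc18a3 were each higher in the shell than in the core in 28 of 31 rats and Slc5a7 in 29 of 31. Against the VTA, Slc18a3 was higher in the core in 29 of 30 rats, Chat in 27 of 30 and Slc5a7 in 23 of 30.

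Slc5a7 was less depleted in the VTA than the others, a difference looked for after the region values were seen. The log2 ratio of Slc5a7 to Slc18a3 counts (pseudocount 0.5) had a median of 1.96 in the VTA (range 0.37 to 3.88), and was above 0 in all 31 VTA libraries. It had a median of -0.24 in the core (range -0.77 to 1.11) and -0.21 in the shell (range -0.64 to 0.77), above 0 in 7 libraries of each. The core ratio lay below the VTA ratio in 30 of 30 rats by a mean of -2.09 (SD 0.93), and the shell ratio in 31 of 31 rats by -2.06 (SD 0.999). A two-sided sign-flip permutation test within rats gave p = 1e-05, the smallest its 100000 resamples allow, for both (adjusted p = 3e-05 over 6 tests). Core and shell did not differ in this ratio beyond the spread between rats by the same permutation test (mean difference 0.0035, SD 0.52, p = 0.971). The ratio of Chat to Slc18a3 shifted less: its median was -0.63 in the VTA, -1.10 in the core and -1.06 in the shell, and the difference from the VTA was -0.52 (SD 1.12) for the core and -0.46 (SD 1.05) for the shell (adjusted p = 0.0302 for both by the permutation test). Without the 5 libraries of few tissue markers the Slc5a7 differences from the VTA were -2.13 (core, 27 of 27 rats) and -2.14 (shell, 29 of 29 rats), each with an adjusted permutation p of 3e-05. The Chat differences were then -0.44 for both and no longer passed (adjusted permutation p = 0.0744 for the core and 0.0702 for the shell). The library labelled female NAc core NIC 1 had a Slc5a7 ratio of 1.23, above every one of the core libraries analysed. Since Chat and Slc18a3 overlap in the annotation, reads that fit both were divided between them by the authors' estimation, and the size of such a share is unknown.

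**Figure D2:**
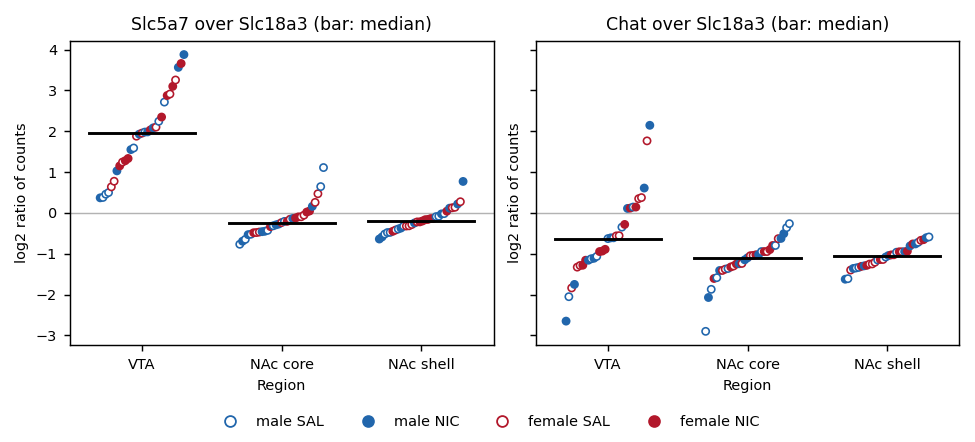
Each point is the log2 ratio of counts in 1 library (left, Slc5a7 over Slc18a3, right, Chat over Slc18a3) by region, with bars at medians, open points SAL, filled points NIC, blue male and red female. All VTA points lie above 0 on the left, whereas the medians of core and shell lie at -0.24 and -0.21.

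Nicotine exposure was compared with saline within each sex and region. In the male VTA, Chat was between 0.184 and 4.89 CPM in 7 SAL rats (median 0.457) and between 0.218 and 0.619 CPM in 8 NIC rats (median 0.456). SAL rats 8, 2 and 1, at 4.89, 2.23 and 1.29 CPM, were above every NIC rat and the other 4 SAL rats were not, so the medians were alike while the means differed. Slc18a3 was between 0.412 and 6.23 CPM in SAL rats (median 0.858) and between 0.119 and 1.96 CPM in NIC rats (median 0.690), and the same 3 SAL rats were above every NIC rat. Slc5a7 ranged from 1.23 to 10.5 CPM (median 2.67) in SAL rats and from 1.28 to 4.79 CPM (median 2.58) in NIC rats, with SAL rats 2 and 8 above all NIC rats.

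The edgeR log2 fold change of NIC against SAL in the male VTA was -1.64 for Chat (SE 0.610, unadjusted p = 0.0159), -1.41 for Slc18a3 (SE 0.590, unadjusted p = 0.0287) and -0.68 for Slc5a7 (SE 0.413, unadjusted p = 0.118), and none passed adjustment over all genes (adjusted p from 0.866 to 0.883). With DESeq2 the adjusted p lay between 0.651 and 0.895. At an unadjusted p under 0.05, 5.62% of all genes passed in the male VTA and 0 genes passed after adjustment (949 genes had an unadjusted p under 0.05 in edgeR and 1008 in DESeq2). The two-sided exact permutation test on mean log2 CPM, which gives less weight to the highest libraries, gave p = 0.246 for Chat (difference -0.73), 0.149 for Slc18a3 (-0.93) and 0.414 for Slc5a7 (-0.38). Without SAL rat 8, the fold changes of Chat and Slc18a3 were -0.83 (SE 0.512) and -0.79 (SE 0.536) by edgeR, with an adjusted p of 0.924 for both. Without SAL rat 2, Slc5a7 stood at -0.32. The only library prep batch with both treatments, C, held NIC rats 10 and 12 and SAL rats 7 and 8, whose Chat levels were 0.619, 0.598, 0.457 and 4.89 CPM.

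In the female VTA the values leaned the other way. Slc5a7, the choline transporter, was between 2.31 and 7.06 CPM in 8 SAL rats (median 3.18) and between 2.70 and 21.6 CPM in 8 NIC rats (median 6.97). NIC rats 1, 8, 6 and 2, at 21.6, 20.0, 12.1 and 8.69 CPM, were above every SAL rat. The same 4 NIC rats had Chat at 5.02, 4.43, 2.41 and 3.73 CPM, above every SAL rat (0.155 to 1.73 CPM), while the other 4 NIC rats were between 0.147 and 0.488 CPM. Slc18a3 was at 9.69, 8.23, 2.93 and 3.43 CPM in these 4 rats, between 0.393 and 0.691 CPM in the other NIC rats, and between 0.352 and 3.73 CPM in SAL rats. The NIC group thus spread over a wider range than the SAL group for all 3 genes, and the groups overlapped for each.

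For female VTA, edgeR gave a log2 fold change of 1.29 for Slc5a7 (SE 0.407, unadjusted p = 0.00539), 1.35 for Slc18a3 (SE 0.673, unadjusted p = 0.0607) and 1.09 for Chat (SE 0.663, unadjusted p = 0.118), with adjusted p of 0.509, 0.552 and 0.624. Of all genes, 9.24% had an unadjusted p under 0.05 and 0 passed adjustment (1559 genes by edgeR and 1648 by DESeq2 before it). The exact permutation test gave p = 0.0331 for Slc5a7 (difference 1.05, adjusted p = 0.596 over 18 tests), 0.358 for Slc18a3 and 0.563 for Chat. Without NIC rat 1, Slc18a3 stood at 0.87 and Chat at 0.77. With prep batch as a covariate the edgeR values were 0.84 for Slc5a7, 0.32 for Slc18a3 and 0.80 for Chat, with an adjusted p of 1 for each. In batch J, NIC rats 7 and 8 had Slc5a7 at 5.23 and 20.0 CPM and SAL rats 9 and 10 at 6.41 and 2.31 CPM. In batch L, NIC rat 3 had 3.95 CPM and SAL rats 13 and 14 had 7.06 and 3.24 CPM. NIC rat 2 is the VTA library with few tissue markers (Th at 17.9 CPM). It also had the highest level of Nrgn, a gene abundant in forebrain projection neurons, of the VTA libraries analysed (1169 CPM, the next highest 497 CPM), and the part of other tissue in its cholinergic levels was not tested. Without it Slc5a7 stood at 1.32, Slc18a3 at 1.34 and Chat at 0.92 (edgeR adjusted p of 0.648, 0.673 and 0.767).

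Markers of dopaminergic neurons, which define the VTA, had values of the opposite sign to the cholinergic genes in both sexes. In females all 7 listed genes were negative (NIC against SAL, median -0.34, range -0.44 to -0.04, all-gene median 0.02). Without NIC rat 2, a library picked out by its low level of these same genes, they had a median of -0.18 (range -0.25 to -0.03, all-gene median 0.01). In males all 7 were positive (median 0.21, range 0.10 to 0.41, all-gene median 0.00). None of the 7 passed adjustment by edgeR, and 1 had an unadjusted p under 0.05, in males (0 in females, with or without rat 2). Their summed level ranged from 134 to 2578 CPM in female NIC, 1504 to 2841 CPM in female SAL, 1715 to 2992 CPM in male NIC and 1408 to 2815 CPM in male SAL rats. Of the 4 female NIC rats with high cholinergic levels, rats 1, 2 and 8 had Th at 336, 17.9 and 478 CPM and rat 6 at 729 CPM, beside 316 to 843 CPM in the other 4. The 6 listed oligodendrocyte genes had a median of -0.18 in males (range -0.27 to 0.00). Of these, 2 were lower at an unadjusted p under 0.05 by edgeR, beside 5.62% of all genes. In females their median was -0.01 (range -0.09 to 0.06). Listed genes were matched towards genes picked on these samples, so shares over all genes are not an equal background for them. The part of tissue make-up in the VTA values was not tested.

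The difference of the sexes in the VTA response, tested as an interaction (male minus female), was -2.74 for Chat (SE 0.953), -2.77 for Slc18a3 (SE 0.947) and -1.98 for Slc5a7 (SE 0.607), with unadjusted p of 0.00735, 0.00643 and 0.00273 by edgeR. None passed adjustment (adjusted p from 0.350 to 0.358), and 11% of all genes had an unadjusted p under 0.05. With prep batch as a covariate the values were -2.94, -3.12 and -1.37, with an adjusted p of 1 for each by edgeR. Without female NIC rat 2 and with no batch term they were -2.55, -2.74 and -1.99. All 7 dopaminergic genes had an interaction of the opposite sign (median 0.44, range 0.40 to 0.71, none with an unadjusted p under 0.05). Without female NIC rat 2 their median was 0.42 (range 0.23 to 0.54), and 1 of 7 had an unadjusted p under 0.05 beside 10.2% of all genes, with none past adjustment by edgeR. These VTA values are not independent evidence. The study's supplementary tables pair the identifiers of Chat and Slc18a3 with symbols because those genes had been picked on the male VTA samples, and those of Slc18a3 and Slc5a7 because they had been picked on the female VTA samples, at an unadjusted p.

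In the NAc, no NIC value passed adjustment. In the male core the log2 fold changes were 0.21 for Chat, 0.20 for Slc18a3 and -0.16 for Slc5a7, and in the female core 0.03, -0.04 and -0.10. In the female shell they were 0.33, 0.17 and 0.18, and in the male shell -0.56 (SE 0.465), -0.56 (SE 0.436) and -0.39 (SE 0.426). Leaving out single libraries moved these values by over 1.5 times. In the female shell Chat lay between 0.16 (without NIC 6) and 0.53 (without SAL 9), and Slc18a3 between 0.04 and 0.34 and Slc5a7 between 0.07 and 0.33 (without NIC 8 and without SAL 9). In the male shell the values nearest 0 were -0.32 for Chat (without SAL 6) and -0.35 and -0.18 for Slc18a3 and Slc5a7 (without SAL 7), and Slc18a3 reached -0.84 without NIC 14. With prep batch as a covariate the female shell values turned to -0.43, -0.43 and -0.37, and in the male core Chat and Slc18a3 turned to -0.22 and -0.38. Only batch J (2 NIC and 2 SAL rats) held both treatments in the female shell, and only batch C (4 NIC and 2 SAL rats) in the male core. These batch-adjusted values therefore rest on those few libraries. Unadjusted edgeR p-values were 0.213 or more for all 12 NAc values with all libraries. Without male shell SAL 1, the library of few tissue markers, the male shell values were -0.73 for Chat (SE 0.377, unadjusted p = 0.0674), -0.74 for Slc18a3 (SE 0.331, unadjusted p = 0.0396) and -0.56 for Slc5a7 (SE 0.329, unadjusted p = 0.108), with an edgeR adjusted p of 0.861 for each. Without the 3 male core libraries of few tissue markers, the values were -0.0033, -0.00030 and -0.38. The shares of all genes with an unadjusted p under 0.05 were 9.83% (male core), 6.45% (female core), 2.46% (male shell) and 10.1% (female shell). Without the libraries of few tissue markers they were 4.92% in the male shell and 7.03% in the male core. The SE reached 0.474, for Chat in the male core. Chat in the male shell ranged from 0.498 to 14.6 CPM in SAL rats (median 6.08) and from 1.87 to 8.34 CPM in NIC rats (median 4.26), with the groups overlapping. Interactions with sex had unadjusted p of 0.162 or more by edgeR in both NAc subregions, where 8.89% (core) and 8.07% (shell) of all genes had one under 0.05. Without the libraries of few tissue markers the interactions were -0.02, 0.04 and -0.27 in the core and -1.06, -0.91 and -0.74 in the shell, with unadjusted p of 0.0656 or more.

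Other genes of acetylcholine handling and reception were listed, and those that a supplementary table of the study pairs with an identifier were followed: 7 of 10 genes of synthesis, storage, uptake and breakdown, 4 of 5 muscarinic and 3 of 9 nicotinic receptor genes. Those tables favour genes picked at an unadjusted p on these samples, so shares over all genes are not an equal background for the listed genes. None of the 14 passed adjustment between NIC and SAL in any sex and region. In the male VTA the list medians lay near 0, at -0.04 (handling), -0.05 (muscarinic) and 0.08 (nicotinic), beside 0.00 over all genes. Of the 7 handling genes, 1 had an unadjusted p under 0.05 in each direction, beside 5.62% of all genes: Chkb, a choline kinase, at 0.12 (SE 0.0484, unadjusted p = 0.0264, adjusted p = 0.866 by edgeR), and Slc17a8. The largest positive values were 0.50 for Colq, the collagen tail of acetylcholinesterase, and 0.47 for Chrm4. Slc17a8, the vesicular glutamate transporter VGLUT3 that striatal cholinergic interneurons and some raphe neurons also carry, had a log2 fold change of -1.60 (SE 0.490, unadjusted p = 0.00464, adjusted p = 0.866 by edgeR). Its levels were 0.503 to 4.76 CPM in SAL rats (median 1.23) and 0.246 to 1.85 CPM in NIC rats (median 0.519). Chrm2, the muscarinic autoreceptor of cholinergic neurons, stood at -1.18 (SE 0.402, unadjusted p = 0.00933, adjusted p = 0.866), with 1.24 to 9.06 CPM in SAL rats and 0.753 to 3.52 CPM in NIC rats. The female VTA values of these genes were 1.06 (Slc17a8) and 0.52 (Chrm2), with unadjusted p of 0.100 and 0.247. The female VTA list medians were -0.01 (handling), 0.47 (muscarinic) and 0.44 (nicotinic). Without NIC rat 2 these medians were 0.05, 0.15 and 0.06.

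Between regions the receptor lists had medians of opposite sign. All 3 nicotinic subunit genes were higher in the VTA than in the core, with log2 differences of 2.67 (Chrnb4), 2.59 (Chrna3) and 0.68 (Chrnb2), against 41.3% of all genes called in that direction. Of the 4 muscarinic genes, 3 were lower in the VTA than in the core, among them Chrm1 (-3.90) and Chrm4 (-3.45), both receptors of striatal projection neurons, against 40.3% of all genes lower there, and Chrm2 was higher (1.41). The muscarinic list had a median difference of -2.10 and the nicotinic list 2.59, beside 0.01 over all genes. Of the 7 genes of acetylcholine handling, 4 were higher and 2 lower in the VTA than in the core (median 0.50), beside 41.3% and 40.3% of all genes, and nothing particular to the list is read from these counts. Bche, which encodes butyrylcholinesterase, was higher by 0.95, and Slc17a8 was lower by 0.71 on the log2 scale.

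Male rats had less of all 3 mRNAs than female rats in the NAc. In the core, Chat had a median of 3.02 CPM in 16 males and 6.12 CPM in 15 females, Slc18a3 6.35 and 13.3 CPM, and Slc5a7 5.44 and 11.1 CPM. In the shell the medians were 5.06 and 10.2 CPM for Chat, 9.69 and 20.4 CPM for Slc18a3 and 9.01 and 20.3 CPM for Slc5a7, with 16 rats of each sex. The ranges of the sexes overlapped in both subregions. The log2 differences, male minus female, were -1.09, -1.16 and -1.20 in the core (SE 0.241 to 0.284, adjusted p from 0.000436 to 0.00359 by edgeR) and -1.15, -1.11 and -1.16 in the shell (SE 0.277 to 0.312, adjusted p from 0.00340 to 0.00879). Among all genes 33% passed in the core and 21.3% in the shell, with 17.5% and 10.3% lower in males. In the VTA the values were -0.87, -0.72 and -0.82, none past adjustment (adjusted p from 0.133 to 0.414), where 2.36% of all genes passed and 1.49% were lower in males. Without female NIC rat 2 they were -0.77, -0.71 and -0.83 (adjusted p from 0.171 to 0.483 by edgeR). With prep batch in the model Chat and Slc18a3 turned to 0.53 and 2.53 in the VTA and Slc5a7 stood at -0.80 (adjusted p from 0.434 to 0.931 by edgeR).

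The 4 NAc libraries of few tissue markers are all male (core SAL 1, SAL 3 and NIC 10, and shell SAL 1), and they include the lowest male value of each gene in both subregions. Without them the differences were -0.83, -0.95 and -0.96 in the core (adjusted p from 0.000752 to 0.00554 by edgeR) and -1.07, -1.03 and -1.08 in the shell (adjusted p from 0.00243 to 0.00837). Box and prep batch move with sex. Only batch L holds libraries of both sexes, with 2 male and 3 female rats in the VTA and 1 of each sex in the shell. Chat stood at 1.87 CPM in the male and 11.5 CPM in the female shell rat. With prep batch in the model, the shell differences were -1.81, -0.72 and -1.004, none past adjustment (adjusted p from 0.738 to 0.896), and in the core such a model could not be fitted. Genes of other cells also differed between the sexes. Nrgn, a calmodulin-binding protein abundant in cortical projection neurons and the single matched gene of that list, was higher in males by 0.44 in the core (adjusted p = 0.00281) and by 0.79 in the shell (adjusted p = 0.00485), with medians of 1186 CPM in male and 670 CPM in female shell. All 8 genes of striatal projection neurons had lower values in males in the core (median -0.71, all-gene median -0.01). Of these, 7 passed adjustment, beside 17.5% of all genes lower there. In the shell 0 of the 8 passed at an adjusted p (0 also at an unadjusted p under 0.05). Without the 4 NAc libraries, which had been picked out by these striatal genes, 8 of 8 passed as lower in males in the core (median -0.47) beside 13.4% of all genes. Nrgn was then higher by 0.38 in the core and 0.63 in the shell (adjusted p = 0.0172 and 0.0105 by edgeR). Of 6 listed oligodendrocyte genes, 3 passed adjustment as lower in males in the core (median -0.12) and 2 in the shell (median -0.27). Beside them, 17.5% and 10.3% of all genes were lower. Without the 4 NAc libraries the medians were -0.13 and -0.22, and again 3 and 2 passed, beside 13.4% and 9.81% of all genes. The part of such tissue differences in the sex difference was not tested.

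Levels of the 3 genes rose and fell together from library to library within each region. In the shell, Pearson r of log2 CPM over 32 rats was 0.97 for Chat with Slc18a3 (Spearman rho 0.96), 0.96 for Chat with Slc5a7 (rho 0.95) and 0.97 for Slc18a3 with Slc5a7 (rho 0.95). In the core, over 31 rats, r was 0.91, 0.95 and 0.93 (rho 0.88, 0.94 and 0.86). In the VTA, over 31 rats with far lower counts, r was 0.78, 0.71 and 0.73 (rho 0.59, 0.54 and 0.51). All 9 relations had a two-sided permutation p of 2e-05 or less (100000 resamples, smallest possible p 1e-05), with adjusted p of 2e-05 or less over the 9, and for rho the largest p was 0.00417. Without the 2 libraries farthest from the median of the first gene, r was 0.94 to 0.96 in the shell, 0.88 to 0.94 in the core and 0.58 to 0.70 in the VTA.

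The co-variation was present within sexes, treatments and batches. After centring within sex and treatment, r was 0.95 to 0.96 in the shell, 0.85 to 0.93 in the core and 0.69 to 0.76 in the VTA, and after centring within prep batch 0.95 to 0.96, 0.83 to 0.93 and 0.58 to 0.73. Without the libraries of few tissue markers it was 0.95 to 0.96 in the shell, 0.86 to 0.93 in the core and 0.69 to 0.77 in the VTA. Male rats alone gave r of 0.60 to 0.66 in the VTA (n = 15) and 0.85 to 0.96 in the NAc, and female rats alone 0.71 to 0.85 in the VTA (n = 16) and 0.89 to 0.97 in the NAc. In the VTA, male SAL rats 1, 2 and 8, female NIC rats 1, 2, 6 and 8 and female SAL rats 9, 12 and 15 each had over 1 CPM of both Chat and Slc18a3, and the other VTA libraries scattered at lower levels of either gene. These correlations share the library and its dissection between both axes, and 2 of the genes share a locus.

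**Figure D3:**
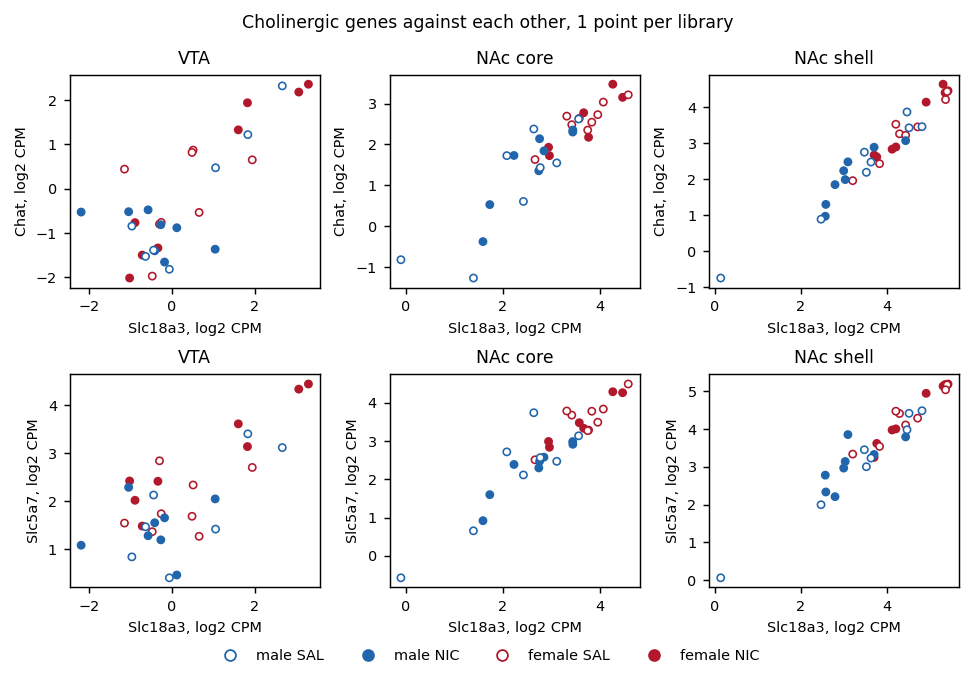
Each point is 1 library, with log2 CPM of Slc18a3 on the x axis and of Chat (top row) or Slc5a7 (bottom row) on the y axis, in the VTA, NAc core and NAc shell (open SAL, filled NIC, blue male, red female). The points lie close to a line in the shell (r of 0.97 in both rows) and scatter at the low end in the VTA (r of 0.78 and 0.73).

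Between regions of the same rat, core and shell went together while the VTA did so weakly. Over 31 rats, r between core and shell was 0.80 for Chat (rho 0.72), 0.82 for Slc18a3 (rho 0.75) and 0.83 for Slc5a7 (rho 0.75), each with permutation p = 1e-05 (adjusted p = 3e-05 over 9). It was 0.68 to 0.69 without the 2 farthest rats, 0.74 to 0.76 after centring within sex and treatment, and 0.61 to 0.68 without the libraries of few tissue markers (n = 28). In males alone r was 0.77 to 0.83 (n = 16) and in females alone 0.45 to 0.58 (n = 15, adjusted p from 0.0526 to 0.115 by permutation). Male rat 1 was lowest in the shell for all 3 genes and had few tissue markers in both NAc libraries.

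Between VTA and core, r was 0.02, 0.16 and 0.29 over 30 rats for Chat, Slc18a3 and Slc5a7 (rho 0.03, 0.29 and 0.30), with permutation p from 0.124 to 0.897. Between VTA and shell, over 31 rats, r was 0.31 (rho 0.36, p = 0.0916), 0.26 (rho 0.33, p = 0.158) and 0.43 (p = 0.0150, adjusted p = 0.0337 over 9), each p being that of r. By Spearman's rho, Slc5a7 gave 0.41 and did not pass (permutation p = 0.0236, adjusted p = 0.0531). It was also no longer past the threshold in other alternatives: by the permutation test r was 0.31 (p = 0.0962) without the 2 farthest rats and 0.26 (p = 0.168) after centring within sex and treatment. Without the libraries of few tissue markers (n = 29), VTA and shell gave r of 0.40 for Chat, 0.39 for Slc18a3 and 0.44 for Slc5a7, with adjusted permutation p of 0.0517, 0.0517 and 0.0405. In females alone, a split added after the data were seen, VTA and shell gave r of 0.70 for Chat, 0.82 for Slc18a3 and 0.59 for Slc5a7 (n = 16, adjusted p from 0.00162 to 0.0489 by permutation). In males alone they gave -0.25, -0.29 and 0.01 (n = 15, unadjusted p of 0.279 or more). The difference between the sexes in these correlations was not tested. The female NIC rats 1, 2, 6 and 8, high in the VTA, were also the highest 4 NIC rats of their sex in the shell for Chat.

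**Figure D4:**
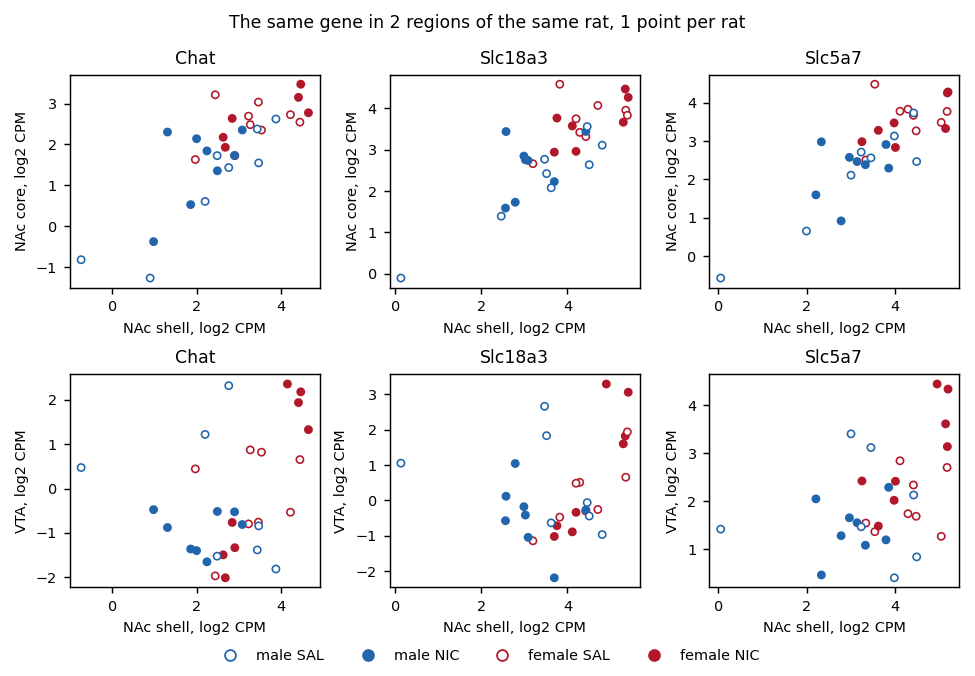
Each point is 1 rat, with log2 CPM in the NAc shell on the x axis and in the NAc core (top row) or the VTA (bottom row) on the y axis, for Chat, Slc18a3 and Slc5a7 (open SAL, filled NIC, blue male, red female). Core and shell lie along a line (r of 0.80 to 0.83), while the VTA row shows a group of female NIC rats at the upper right and no common line (r of 0.26 to 0.43).

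The genes most like the 3 members were ranked by mean Pearson r with them after centring within sex and treatment, among genes with a mean of at least 1 CPM. In the VTA (14429 genes, 31 libraries), the first was Slc17a8, with a mean r of 0.67, and the named genes among the first 10 were Npr1 (0.58), Hivep3 (0.57), Usp31 (0.56), Fem1b (0.56) and Pdzd2 (0.56). Without female NIC rat 2, Slc17a8 (0.67) came second to the glycine transporter gene Slc6a5 (0.70). In the core (14240 genes, 31 libraries) the first was ENSRNOG00000019447, with a mean r of 0.93, followed by ENSRNOG00000028348 (0.91), the homeobox cofactor gene Pbx3 (0.90), Nexn (0.90) and Isl1 (0.89), the LIM homeodomain factor of striatal cholinergic interneurons and of part of the projection neurons. LOC691995 (0.89) and Gnal (0.89), the G protein subunit that couples Drd1, were also among the first 10. Without the core libraries of few tissue markers, Pbx3, Nexn, Isl1 and Gnal were not among the first 10. ENSRNOG00000019447 (0.88) then stayed first, followed by Gad1 (0.87), with ENSRNOG00000028348 at 0.81 and LOC691995 at 0.80. In the shell (14300 genes, 32 libraries) the same 2 identifiers came first, with mean r of 0.96 each, and Igsf1 (0.93), Nsg1 (0.92) and Gad1 (0.92), the GABA-synthesizing enzyme, were among the first 10. Without male shell SAL 1 the same 2 identifiers led, at 0.96 and 0.95. Igsf1, Nsg1 and Gad1 were then not among the first 10 of the shell. The 99th percentile of the mean r over all genes was 0.44 in the VTA, 0.79 in the core and 0.78 in the shell, with medians between 0.00 and 0.03.

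Listed genes of other cells were compared with the 3 members in the same way. In the core all 8 genes of striatal projection neurons had a mean r between 0.84 and 0.88 with the cholinergic genes, Drd1 at 0.88 and Drd2 at 0.86 beside 0.85 to 0.93 among the cholinergic genes themselves. In the shell they lay between 0.49 and 0.71, and the 6 oligodendrocyte genes, which encode myelin proteins, between 0.52 and 0.68, against -0.24 to 0.29 in the core. Isl1 had a mean r of 0.80 and Zic4, a zinc finger transcription factor, 0.78 in the shell, and 0.89 and 0.24 in the core. Nrgn had -0.89 in the shell and -0.39 in the core, and the peptide genes Cck -0.77 and -0.63 and Cartpt 0.71 and 0.46. Slc17a8 had 0.74 in the shell and 0.79 in the core, where it ranked 251 and 134 among all genes, while it ranked 1 in the VTA. Without the libraries of few tissue markers, which these striatal genes had picked out, the 8 striatal genes lay between 0.61 and 0.72 in the core and between 0.01 and 0.41 in the shell, the oligodendrocyte genes between 0.27 and 0.47 in the shell, Cartpt at 0.42 (shell) and 0.20 (core), and Slc17a8 at 0.66 (shell) and 0.58 (core). Isl1 then stood at 0.85 in the shell and 0.79 in the core. The part of tissue make-up in the correlations between the 3 genes was not tested.

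In the VTA, listed genes of dopaminergic, striatal projection, motor and Edinger-Westphal neurons gave no such high positive values. The 7 genes of dopaminergic neurons had a mean r between -0.33 and -0.15 with the cholinergic genes, and the 8 genes of striatal projection neurons between -0.47 and 0.05. Without female NIC rat 2 these ranges were -0.37 to -0.03 and -0.47 to -0.01. Drd2, of the striatal list, had a median of 97.3 CPM in the VTA and 20.9 CPM in female NIC rat 2, the library low in Th. The striatal label may thus not hold for it there. Prph, which encodes peripherin, an intermediate filament of motor neurons, had 0.02 at a median of 54.2 CPM, and Isl1, a defining factor of motor neurons, was at a median of 0.442 CPM in the VTA and at 0 in its lowest libraries. Cartpt and Cck, peptides of the Edinger-Westphal nucleus, had -0.48 and -0.59. Only 2 of 8 motor neuron genes and 2 of 3 Edinger-Westphal genes could be matched to identifiers, so that these lists describe their cells poorly. In female VTA NIC rat 1, with the highest cholinergic levels, Slc17a8 stood at 8.80 CPM and Isl1 at 0.

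**Figure D5:**
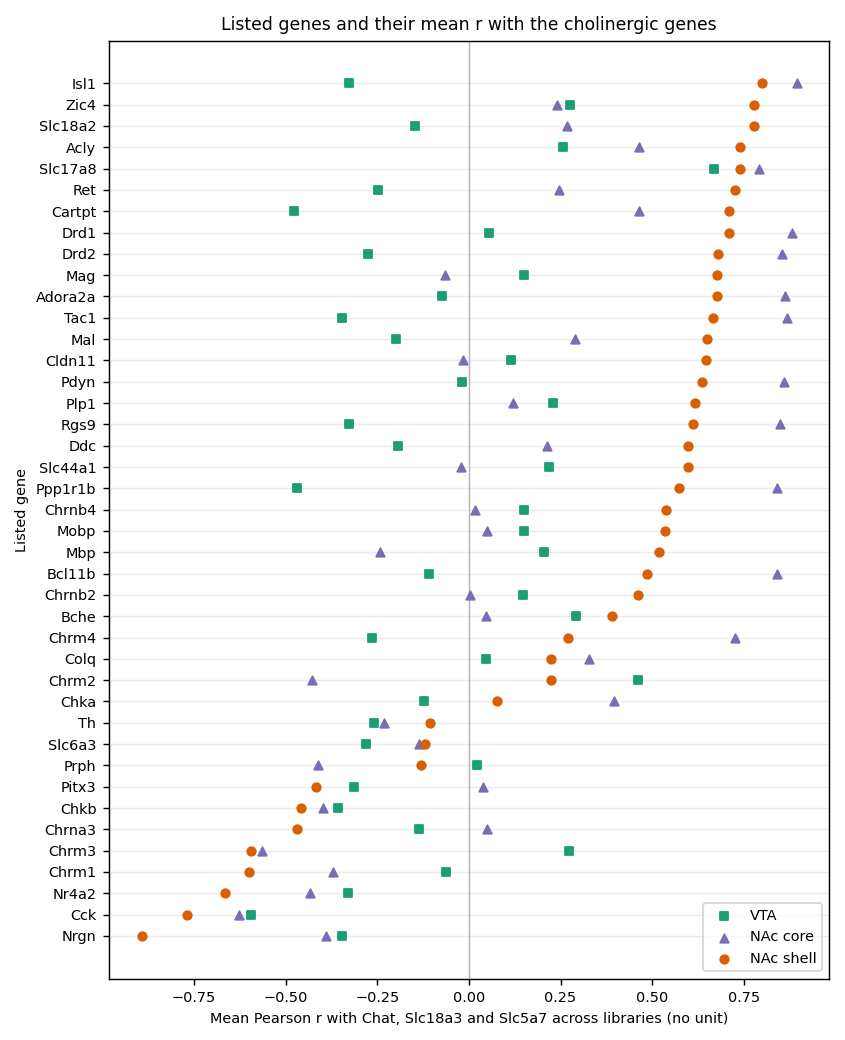
Each row is 1 listed gene and each point its mean Pearson r with Chat, Slc18a3 and Slc5a7 over all libraries analysed of 1 region, those of few tissue markers included (squares VTA, triangles NAc core, circles NAc shell), after centring within sex and treatment. Drd1, of the striatal projection neurons, lies at 0.88 in the core, 0.71 in the shell and 0.05 in the VTA, Slc17a8 lies between 0.67 and 0.79 in all regions, and Nrgn lies at -0.89 in the shell.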

How the data were processed

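Paired reads had been made from total RNA of 3 brain regions in 32 rats. The authors trimmed reads with fastp 0.20.0, estimated transcript abundance with Salmon 0.12.0 on the Rnor 6 annotation and deposited 1 table of counts per gene as whole numbers. How estimates became whole numbers is not given in the sources used here. Symbols came from the study's supplementary tables, which pair 7964 identifiers of the 17637 with one, so that gene lists were matched in part and towards genes picked on these samples.

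Counts were fitted with edgeR 4.0.16 (quasi-likelihood test, TMM scaling, R 4.3.3), keeping genes with more than 10 normalized counts in 3 or more libraries, and p-values were adjusted over all 16879 genes by the Benjamini-Hochberg method (threshold 0.05). NIC and SAL were compared within sex and region, sexes within region with treatment as a term, and regions over all groups. Log2 CPM used a prior count of 2. SE is the fold change divided by the root of F. Rats are separate animals. Of 2 libraries of male VTA SAL 5, the one marked R1 was left out, as was the library labelled female NAc core NIC 1, giving 94 of 96. A VTA library of male SAL 3 was not analysed here. Library totals of 15868529 to 27736905 limit precision at low counts. Correlations and ratios were tested by permutation (100000 resamples, scipy 1.17.1), and NIC against SAL for single genes also by an exact permutation test. On simulated counts for the male VTA design, the edgeR fit recovered 80% of 100 genes changed 2-fold and 95% of 100 changed 4-fold, with 10 false calls of 16879. The simulated spread followed the trend over all genes, not each gene's own spread, and the changed genes were drawn at random. These shares therefore do not apply to the 3 members at their low VTA counts.

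Genes named are the 3 members, the listed genes, and per region the 10 genes of at least 1 CPM most like the members, of which at most 2 identifiers without a symbol are printed. The members and lists were chosen with earlier results of these data known. Replicate numbers are rat numbers and pair regions of the same rat. Same-rat deviations from group means over all genes correlated with a median of 0.087 between core and shell, 0.034 between VTA and core and 0.033 between VTA and shell, against -0.007 to 0.000 for other rats. Alternatives were DESeq2 1.42.0 (its test and its size factors), no filter, all mapped libraries, prep batch as a covariate, 1 fit over all groups, a rat block for regions, and leaving out each rat. Sequences are from RefSeq (GRCr8).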

Additional observations from a re-analysis of the deposited data

Results flagged for a closer look

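In the VTA, the response to nicotine exposure differed between the sexes for all 3 genes at an unadjusted p. The male log2 fold change minus the female one was -2.74 for Chat (unadjusted p = 0.00735), -2.77 for Slc18a3 (unadjusted p = 0.00643) and -1.98 for Slc5a7 (unadjusted p = 0.00273) by edgeR's interaction test. Adjusted p over all genes was 0.358, 0.353 and 0.350, and 0 of 16879 genes passed, while 1853 genes had an unadjusted p under 0.05. Slc17a8, the gene closest to the members over all VTA libraries, had an interaction of -2.67 (unadjusted p = 0.00325, adjusted p = 0.350). With prep batch as a covariate the values were -2.94, -3.12 and -1.37, with an edgeR adjusted p of 1 for each. All 7 listed dopaminergic genes had a value of the opposite sign (median 0.44, range 0.40 to 0.71). Without female NIC rat 2, the VTA library of few tissue markers, the dopaminergic median was 0.42 (range 0.23 to 0.54) and the 3 genes stood at -2.55, -2.74 and -1.99. The part of tissue make-up was not tested. Box and sex cannot be told apart. The values of the 3 genes are not independent evidence, since each had been picked at an unadjusted p on VTA samples of 1 or both sexes. The 3 genes and Slc17a8 also go together across VTA libraries, so these are not separate results. On the log2 scale no single library stood apart from its group by Dixon's criterion in any of the 12 groups for any of the 3 genes, 36 tests in all, where chance alone marks about 1 in 20. On CPM, a scale tried after the data were seen, 3 libraries stood apart, all for Slc18a3 and all at the high end: female VTA SAL 9 (3.73 CPM, next 1.48), male VTA NIC 11 (1.96 CPM, next 0.985) and male NAc shell NIC 14 (21.4 CPM, next 12.9).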

How the results depend on the processing

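Region differences and correlations between the 3 genes kept their direction and side of the threshold under every alternative run (54 and 69 values). With the rat as a replicate block, region differences of Chat, Slc18a3 and Slc5a7 were -2.22, -2.74 and -0.88 (VTA minus core), -3.08, -3.56 and -1.68 (VTA minus shell) and -0.86, -0.81 and -0.80 (core minus shell), and no call changed. No paired analysis of NIC against SAL was possible because each rat had 1 treatment.

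No NIC value passed adjustment under any alternative, and VTA values kept their direction. Values in the NAc turned. With prep batch, Chat and Slc18a3 stood at -0.22 and -0.38 in the male core, Slc5a7 at 0.10 in the female core, and the genes at -0.43, -0.43 and -0.37 in the female shell. In each of these comparisons only 1 batch held both treatments. The core interactions of Chat and Slc18a3 with sex stood at -0.42 and -0.22. Without libraries of few tissue markers, an alternative added after the data were seen, Chat and Slc18a3 stood at -0.0033 and -0.00030 in the male core, and the Chat interaction in the core at -0.021. In the same set, the ratio of Chat to Slc18a3 differed from the VTA by -0.4397 (core) and -0.4405 (shell), no longer called, and that of Slc5a7 to Slc18a3 by -0.055 between shell and core. With all mapped libraries, Chat and Slc5a7 stood at -0.018 and 0.041 in the female core. Leaving out each rat in turn gave -0.17 to 0.14 for Chat, -0.20 to 0.12 for Slc18a3 and -0.26 to 0.062 for Slc5a7 in the female core, and -0.33 to 0.14 for Slc5a7 in the male core. Sex differences with prep batch, also added later, were 0.53 for Chat and 2.53 for Slc18a3 in the VTA, and -1.81, -0.72 and -1.004 in the shell, no longer called. The cause was not tested.

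Between regions of the same rat, male rats alone gave r of -0.448, -0.181 and -0.063 for VTA and core and -0.254, -0.295 and 0.012 for VTA and shell, and female rats alone 0.370, 0.540 and 0.308 (VTA and core), 0.701, 0.815 and 0.590 (VTA and shell) and 0.585, 0.561 and 0.455 (core and shell). Chat in VTA and core gave -0.052 without the 2 farthest rats and -0.112 when centred. Slc5a7 in VTA and shell gave 0.406 by Spearman, 0.315 without the 2 farthest and 0.255 when centred.

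Genes with an unadjusted p under 0.05 numbered 295 with prep batch against 1559 in the female VTA, and 629 against 1709 in the female shell. In the male shell they numbered 2013 with prep batch, 743 in 1 fit over all groups, 831 without SAL 1, the library of few tissue markers, and 636 without NIC 14, against 415. They numbered 1554 without SAL 4 against 949 in the male VTA, and 1046 without NIC 9 against 1660 in the male core. Low counts in the VTA, down to 3 per library, limit what can be seen there.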

Other observations

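In the female shell, where the cholinergic genes had no value past a test and turned sign with prep batch as a covariate, all 8 listed genes of striatal projection neurons had an unadjusted p under 0.05 and were lower in NIC rats, with a median log2 fold change of -0.35 and a range of -0.43 to -0.25. The 6 oligodendrocyte genes had positive values in the same comparison (median 0.30, range 0.25 to 0.35), 2 of them with an unadjusted p under 0.05, and their summed level ranged from 7895 to 19935 CPM in NIC and from 7521 to 12426 CPM in SAL rats. The part of tissue make-up was not tested. None of these genes passed adjustment over all genes by edgeR, and 10.1% of all genes had an unadjusted p under 0.05 there. Listed genes were matched through symbols that favour genes picked at an unadjusted p on these samples. Shares over all genes are therefore not an equal background for them. The 8 striatal genes were listed as markers of the same kind of cell, so they are not 8 separate results. In the male shell 0 of the 8 had an unadjusted p under 0.05 (median -0.17). Without SAL 1, a library picked out by its low level of these genes, 2 of the 8 were lower at that threshold (median -0.33). The share of all genes was then 4.92%. The difference between the sexes was tested as an interaction for each gene, and 0 of the 8 had an unadjusted p under 0.05.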
